A study of Mus musculus with 23 samples.

Results

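Interferon-stimulated genes are the genes that cells switch on when they sense an interferon, and 38 of them were followed through RNA sequencing of mouse hippocampus. The members are a list of symbols, and each was found by its symbol among the 55335 genes of the count table. They were read gene by gene and as a module, which is the mean over members of log2 CPM (counts scaled to library size), centred for each gene on its mean over all libraries. In 3xTg mice, a model of Alzheimer's disease (AD), the members were on average higher than in wild-type (WT) mice at both ages. However, some 3xTg libraries were at or below the WT level and others far above it. Few single members passed the test in any pair of groups.

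The 23 libraries came from dissected hippocampi of 6 groups. WT mice were the C57BL/6J x 129S1 hybrid. Untreated mice of 8 months formed WT-8M (n = 4) and 3xTg-8M (n = 4). The mice of 10 months had carried osmotic pumps for 28 days that infused the lateral ventricles with 80 µM of SCDi, an inhibitor that targets stearoyl-CoA desaturase, which makes monounsaturated fatty acids, or with its vehicle of 0.8% DMSO in artificial cerebrospinal fluid. Vehicle was given to WT-D (n = 4) and 3xTg-D (n = 4), and the inhibitor to WT-S (n = 3) and 3xTg-S (n = 4).

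All 3xTg mice carry human APP and tau transgenes driven in neurons by the mouse Thy1.2 element. Other differences between the 3xTg and WT lines cannot be told apart from the effect of these transgenes. According to the study's methods all mice were female. Every library is 1 animal. No untreated mice of 10 months and no infused mice of 8 months were analysed here, so age and the pump operation cannot be told apart either.

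Type I interferons are secreted proteins that bind a receptor shared by almost all cells. The signal from the receptor leads a complex that holds STAT2 and IRF9 to a short DNA element, the interferon-stimulated response element, in front of the target genes. The products bind foreign nucleic acid, block translation and the release of viruses, attach the ubiquitin-like protein ISG15 to other proteins, and sense further RNA and DNA. In the brain this programme is known from microglia, the resident macrophages, in ageing and around amyloid deposits, and also from endothelium, astrocytes and neurons.

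The response element is shown here as a description of the members. Interferon acts on such genes through this element, so a high share of members with it comes with the choice of list. It is no independent evidence about these data. In RefSeq (GRCm38.p6), 31 of the 38 members had a window of 250 bases ending at the start of transcription. Usp18, Rtp4, Ifi27, Parp14, Parp9, Zbp1 and Nlrc5 were not in that table. The motif GAAANNGAAA, searched on both strands (TTTCNNTTTC on the strand shown), was in the window of 12 of these members (38.7%), against 936 of all 27025 genes in the table (3.46%). Those 12 were Ifit1, Ifit3, Ifit3b, Isg15, Stat2, Gbp2, Gbp3, Gbp7, Bst2, Trim30a, Rsad2 and Lgals9. A match is a description of letters and not a measured binding site. The windows of 8 members whose levels are described further on are printed 5′ to 3′ on the strand of the gene, with matches in capitals. Adjoining or overlapping matches form 1 run of capitals.
Isg15 (chr4:156200819-156201068, minus strand): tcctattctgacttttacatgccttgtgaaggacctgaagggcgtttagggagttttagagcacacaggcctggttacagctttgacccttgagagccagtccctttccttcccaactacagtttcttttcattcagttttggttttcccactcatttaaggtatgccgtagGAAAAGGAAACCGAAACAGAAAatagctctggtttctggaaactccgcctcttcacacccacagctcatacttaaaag
Stat2 (chr10:128270248-128270497, plus strand): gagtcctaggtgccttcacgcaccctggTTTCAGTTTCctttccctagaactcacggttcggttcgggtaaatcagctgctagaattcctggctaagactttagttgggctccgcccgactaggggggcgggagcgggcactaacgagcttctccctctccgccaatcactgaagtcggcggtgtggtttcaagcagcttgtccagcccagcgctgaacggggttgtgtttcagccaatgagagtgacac
Ifit1 (chr19:34640639-34640888, plus strand): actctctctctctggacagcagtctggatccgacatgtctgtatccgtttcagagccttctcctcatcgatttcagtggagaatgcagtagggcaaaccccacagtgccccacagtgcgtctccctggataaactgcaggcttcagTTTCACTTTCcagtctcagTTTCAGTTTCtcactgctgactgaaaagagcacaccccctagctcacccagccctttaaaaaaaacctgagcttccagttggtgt
Ifit3 (chr19:34583279-34583528, plus strand): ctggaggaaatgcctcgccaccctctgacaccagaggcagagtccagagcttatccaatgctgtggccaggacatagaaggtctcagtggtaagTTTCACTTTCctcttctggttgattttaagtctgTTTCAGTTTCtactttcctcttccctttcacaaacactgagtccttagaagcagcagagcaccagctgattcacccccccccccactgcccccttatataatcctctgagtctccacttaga
Ifit3b (chr19:34607707-34607956, plus strand): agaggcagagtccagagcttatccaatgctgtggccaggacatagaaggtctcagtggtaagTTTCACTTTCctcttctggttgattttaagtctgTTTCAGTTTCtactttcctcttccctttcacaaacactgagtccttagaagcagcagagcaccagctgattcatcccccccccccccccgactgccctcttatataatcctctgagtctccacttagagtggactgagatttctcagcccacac
Gbp3 (chr3:142559794-142560043, plus strand): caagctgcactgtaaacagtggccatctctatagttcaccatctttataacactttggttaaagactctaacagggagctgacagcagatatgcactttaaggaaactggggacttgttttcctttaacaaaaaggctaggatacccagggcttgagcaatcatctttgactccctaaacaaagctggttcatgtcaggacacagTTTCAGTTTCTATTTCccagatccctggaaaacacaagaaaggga
Gbp7 (chr3:142530086-142530335, plus strand): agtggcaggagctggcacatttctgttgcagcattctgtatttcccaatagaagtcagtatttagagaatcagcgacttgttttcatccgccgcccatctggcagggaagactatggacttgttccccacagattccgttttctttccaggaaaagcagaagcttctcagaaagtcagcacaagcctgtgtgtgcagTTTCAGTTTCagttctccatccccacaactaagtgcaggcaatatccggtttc
Bst2 (chr8:71537473-71537722, minus strand): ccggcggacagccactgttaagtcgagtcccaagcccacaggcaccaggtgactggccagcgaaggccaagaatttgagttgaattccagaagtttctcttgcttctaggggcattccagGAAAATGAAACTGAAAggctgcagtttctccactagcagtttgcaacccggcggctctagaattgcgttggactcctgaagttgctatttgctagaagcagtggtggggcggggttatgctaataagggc

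In these windows Isg15 held 3 matches, whose last bases as printed lay 69, 63 and 57 bases before the start of transcription. The positions that follow are likewise those of the last base of each match. Gbp3 held 2 matches, 36 and 30 bases before its start, and Bst2 held 2, 121 and 115 bases before its own. Ifit1 had matches 95 and 76 bases before the start. The neighbours Ifit3 (147 and 113 bases) and Ifit3b (179 and 145 bases) had the same spacing between their matches. Stat2 and Gbp7 held 1 match each, 213 and 44 bases before the start. The members lie on 15 chromosomes. Their largest group is on chromosome 11 with 6 members (Ifi35, Xaf1, Trim25, Lgals3bp, Rnf213 and Lgals9), and the 4 Ifit genes are neighbours on chromosome 19.

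Gene counts per library ranged from 12.8M to 36.7M (8 months) and from 13.0M to 17.6M (10 months). Libraries of a group had r of 0.984 to 0.993 with each other over all genes, and 0 pairs were identical. Read counts differed widely between members. Stat2 had 302 to 1204 counts per library and Ifi27 303 to 1382, but other members had few. Isg15 had 5 to 99 counts per library, Usp18 5 to 184, Irf7 7 to 130 and Bst2 12 to 170, and Zbp1, a sensor of nucleic acids in left-handed helices, had 0 to 16 with 0 in 3 libraries. The mean level of a member over all libraries ran from 0.214 CPM (Zbp1) to 31.7 CPM (Ifi27), and since CPM is not divided by transcript length these levels rank no gene above another. Zbp1, Ifi44 and Nlrc5 were below 1 CPM on average and were left out of the module, which rests on the other 35.

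The module was higher in 3xTg than in WT mice by a mean difference of 0.40 at 8 months, 0.70 with vehicle and 0.40 with inhibitor, on the centred log2 CPM scale. It was -0.37 ± 0.11 (SD, n = 4) in WT-8M and 0.03 ± 0.54 (n = 4) in 3xTg-8M. At 10 months it was -0.30 ± 0.09 (n = 4) in WT-D and 0.40 ± 0.62 (n = 4) in 3xTg-D. With the inhibitor it was -0.09 ± 0.12 (n = 3) in WT-S and 0.31 ± 0.37 (n = 4) in 3xTg-S. No test was run on the module, because its members were chosen with results of these data known.

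The 3xTg libraries differed widely among themselves. In 3xTg-8M the 4 libraries had scores of 0.62, 0.28, -0.61 and -0.18, against -0.50, -0.34, -0.24 and -0.42 in WT-8M. Replicate 3 of 3xTg-8M was therefore below every WT library of its age. In 3xTg-D the scores were -0.31, 0.52, 0.20 and 1.18, against -0.18, -0.32, -0.40 and -0.30 in WT-D. Replicate 1 of 3xTg-D was inside the WT-D range and replicate 4 was the highest of all 23 libraries. With the inhibitor, 3xTg-S libraries had 0.55, -0.15, 0.19 and 0.66, and WT-S libraries -0.22, 0.000509 and -0.04, so that replicate 2 of 3xTg-S was inside the WT-S range. The groups overlapped in all 3 pairs. Leaving out 1 library at a time moved the difference between 0.20 (without replicate 1 of 3xTg-8M) and 0.61 (without replicate 3) at 8 months. With vehicle it ran from 0.43 (without replicate 4 of 3xTg-D) to 0.93 (without replicate 1), and with inhibitor from 0.29 to 0.55.

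**Figure D1:**
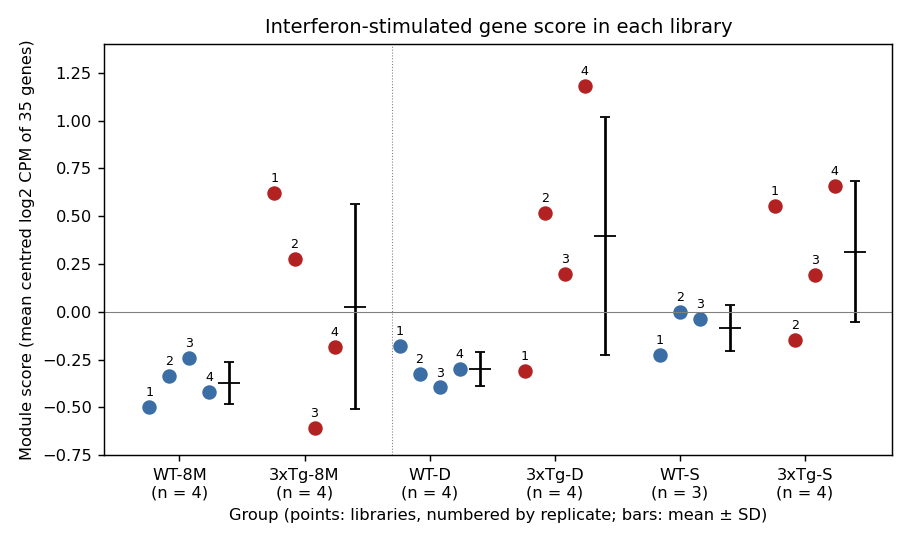
Module score (mean over 35 members of centred log2 CPM, vertical axis) of each of the 23 libraries by group, with points numbered by replicate and bars giving mean ± SD. WT libraries lie between -0.50 and 0.000509 in all 3 WT groups, while 3xTg libraries run from -0.61 to 1.18.

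The order of libraries within a group was shared by most members. Replicate 4 of 3xTg-D was the highest of its 4 libraries in 32 of the 35 members and replicate 1 was the lowest in 32. In 3xTg-8M, replicate 1 was highest in 26 members and replicate 3 lowest in 28. In 3xTg-S the highest library was replicate 4 in 19 members and replicate 1 in 12, and replicate 2 was lowest in 26. Set against the highest WT library of the same age and treatment, replicate 4 of 3xTg-D was above it in all 35 members, replicate 2 in 31 and replicate 3 in 28, but replicate 1 in 8. Among 3xTg-8M libraries 29, 28, 4 and 14 members were above the highest WT-8M library. Among 3xTg-S libraries 29, 9, 18 and 31 members were above the highest WT-S library. The same count over all tested genes was 20% to 31.1% of genes per library. Below the lowest WT library of the same age and treatment were 1, 0, 19 and 8 members in the 3xTg-8M libraries. There were 10, 0, 2 and 0 such members in 3xTg-D and 0, 14, 2 and 0 in 3xTg-S, against 20.5% to 29.7% of all tested genes per library. Members are not independent of each other within a library, so these counts describe 12 libraries and not 35 repeats.

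**Figure D2:**
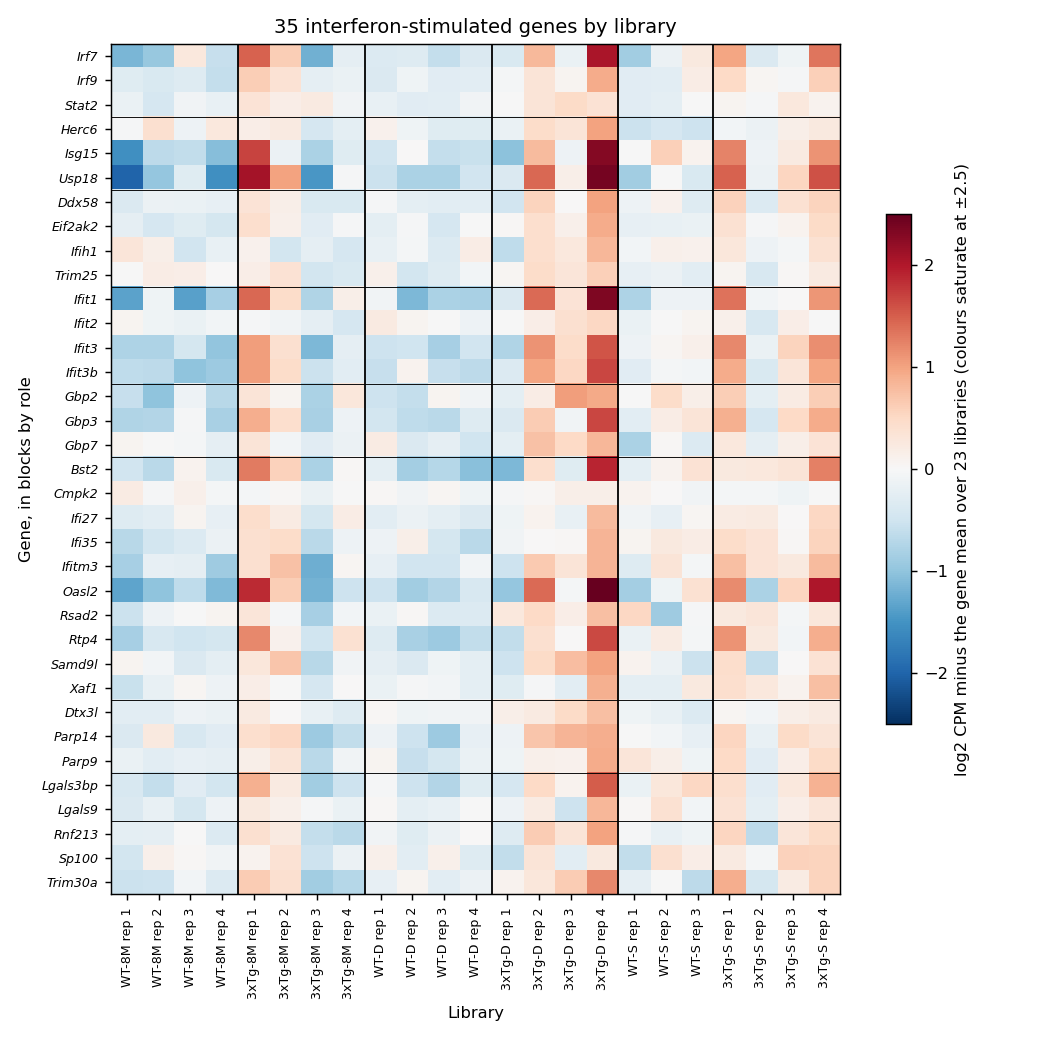
Centred log2 CPM of the 35 members (rows) in the 23 libraries (columns, ordered by group and replicate), with the colour scale limited at 2.5 in both directions. Replicate 4 of 3xTg-D and replicate 1 of 3xTg-8M are high in most rows. Replicate 1 of 3xTg-D resembles WT columns, and replicate 3 of 3xTg-8M is below every WT-8M library in 19 of the 35 rows.

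The spread between libraries of a group was larger in 3xTg than in WT mice for most members. The SD of log2 CPM was larger in 3xTg-8M than in WT-8M for 32 of 35 members, in 3xTg-D than in WT-D for 34 and in 3xTg-S than in WT-S for 28. Over all tested genes the same held for 54.8%, 48.8% and 49.0% of genes. The median SD of the members was 0.517 in 3xTg-8M and 0.217 in WT-8M, 0.566 in 3xTg-D and 0.189 in WT-D, and 0.331 in 3xTg-S and 0.238 in WT-S. Over all tested genes the medians lay between 0.121 and 0.146 in the same 6 groups. Oasl2, a member of the oligoadenylate synthetase family, had an SD of 1.76 in 3xTg-D and 0.207 in WT-D. Usp18, the protease that removes ISG15 from proteins and dampens the interferon receptor, had an SD of 1.51 in 3xTg-8M and 0.732 in WT-8M. Replicate 1 of 3xTg-8M, the highest of its group in the module, also had the most gene counts of that group (32.9M, against 12.8M to 15.3M in the others). Replicate 1 of WT-8M had 36.7M and was the lowest of its group in the module. The high replicate 4 and the low replicate 1 of 3xTg-D had 14.3M and 13.9M. The part of depth in the spread was not tested.

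**Figure D3:**
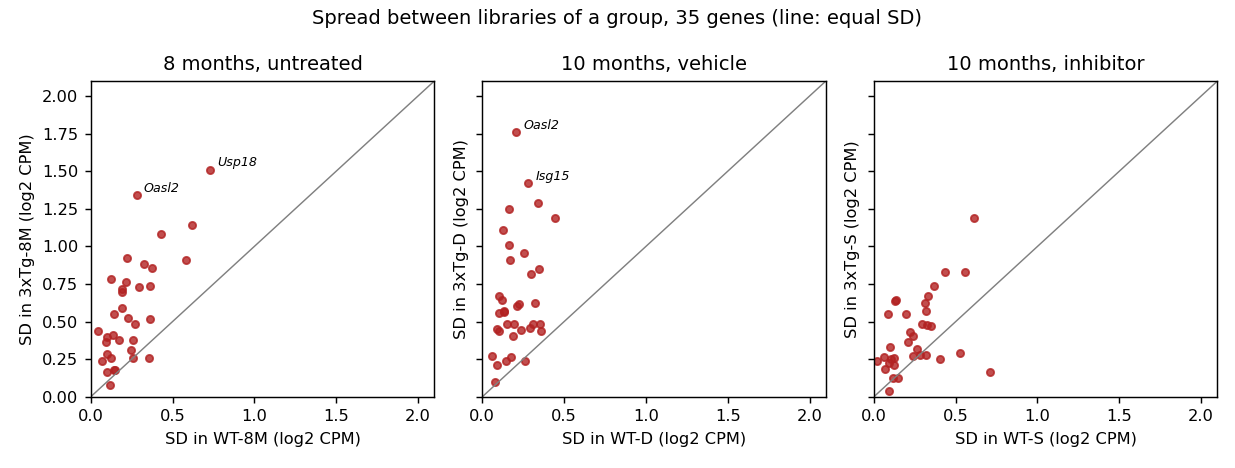
SD of log2 CPM between libraries of WT (horizontal axis) and 3xTg (vertical axis) for each of the 35 members, in panels for 8 months, vehicle and inhibitor, with the line of equal SD. Most points lie above the line, by a wider margin in the first and second panels than with the inhibitor, and Oasl2 reaches 1.76 in 3xTg-D.

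The first comparison asks how the untreated strains differed at 8 months. No member passed an adjusted p under 0.05 (edgeR quasi-likelihood test, Benjamini-Hochberg over all 15483 genes tested), where 1.05% of all tested genes were called higher in 3xTg. Of the 36 members tested, 31 had a positive log2 fold change and 5 a negative one, with a median of 0.37, and of all genes 51.3% were positive with a median of 0.01. The unadjusted threshold used in the study, p under 0.01, was passed by 8 members higher and 0 lower, against 3.13% of all genes higher. Under 0.05 there were 14 higher, against 8.55%. In 2 members, Ifit3b and Irf9, the groups did not overlap with 3xTg-8M higher, against 5.24% of all genes. The share of members (of 36) that were apart was thus close to that of all genes. The DESeq2 likelihood ratio test called 3 members (Ifit3b, Irf9 and Stat2), against 2.22% of all genes in either direction. Isg15 and Zbp1 were under the filter on low counts here.

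Stat2, the factor that carries the interferon signal to the nucleus, came nearest to the threshold. Its level was 26.1, 21.7, 27.5 and 25.6 CPM in WT-8M and 36.8, 32.8, 34.2 and 27.4 CPM in 3xTg-8M. Of the 3xTg libraries, 3 lay above all WT libraries and replicate 4 was just inside their range. Its log2 fold change was 0.39 (SE 0.10, adjusted p = 0.07). Irf9, the DNA-binding partner of Stat2, was at 7.99, 7.61, 7.95 and 6.53 CPM in WT-8M and 15.3, 12.8, 8.48 and 8.81 CPM in 3xTg-8M. All 3xTg libraries were above all WT libraries, with replicates 1 and 2 well above replicates 3 and 4, and the log2 fold change was 0.62 (SE 0.18, adjusted p = 0.11). Irf7, the factor that amplifies interferon production, was at 0.551, 0.646, 1.65 and 0.869 CPM in WT-8M and 3.98, 2.15, 0.525 and 1.14 CPM in 3xTg-8M. Replicate 3 of 3xTg-8M was the lowest of the 8 and replicate 1 the highest, for a log2 difference of 1.28 (SE 0.52, adjusted p = 0.242).

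Among effectors the differences were larger and the libraries less alike. Usp18 was at 0.22, 0.574, 0.975 and 0.348 CPM in WT-8M and 5.63, 2.62, 0.375 and 1.21 CPM in 3xTg-8M, with replicate 3 of 3xTg-8M inside the WT range and replicates 1 and 2 far above it. Its log2 fold change was the largest of the members, 2.55 (SE 0.69, adjusted p = 0.0835). Oasl2 was at 2.31, 2.87, 3.75 and 2.68 CPM in WT-8M and 21.8, 9.16, 2.55 and 4.1 CPM in 3xTg-8M, where replicate 3 was again inside the WT range. The difference was 1.81 (SE 0.54, adjusted p = 0.113) on the log2 scale. Ifit1, which binds foreign RNA caps and blocks their translation, was at 1.38, 3.37, 1.35 and 1.98 CPM in WT-8M and 10.1, 5.08, 2.1 and 4.04 CPM in 3xTg-8M. Replicate 3 overlapped the WT libraries, and the log2 fold change was 1.51 (SE 0.43, adjusted p = 0.0989). Ifit3b, a copy of the Ifit1 partner Ifit3, was at 2.18, 2.15, 1.65 and 1.77 CPM in WT-8M and 7.19, 4.77, 2.33 and 2.83 CPM in 3xTg-8M. No library overlapped, and the log2 fold change was 1.19 (SE 0.32, adjusted p = 0.0776). Rtp4, a transmembrane protein induced by interferon, was at 0.991, 1.36, 1.28 and 1.32 CPM in WT-8M and 4.37, 2.0, 1.28 and 2.42 CPM in 3xTg-8M, with replicate 3 inside the WT range (1.13 (SE 0.33, adjusted p = 0.11)). Eif2ak2, the kinase PKR that stops translation when it binds double-stranded RNA, was at 10.3, 8.97, 9.75 and 8.86 CPM in WT-8M and 16.1, 13.2, 9.98 and 11.9 CPM in 3xTg-8M, with replicate 3 of 3xTg-8M inside the WT range (0.45 (SE 0.14, adjusted p = 0.124)). Isg15, not tested at this age, was at 0.22, 0.503, 0.525 and 0.348 CPM in WT-8M and 3.03, 0.769, 0.45 and 0.673 CPM in 3xTg-8M. Its highest value was again in replicate 1 of 3xTg-8M and the other 3xTg libraries were at 0.769 CPM or less.

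These counts rest on few libraries. Without replicate 3 of 3xTg-8M, 6 members were called (Ifit1, Ifit3, Ifit3b, Usp18, Oasl2 and Rtp4), and without replicate 4 only Stat2 was.

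At 10 months the strains were compared with vehicle, with inhibitor, and over both treatments in 1 fit of the 15 libraries. In the fit over both treatments, which has the most libraries, all 37 tested members had a positive log2 fold change with a median of 0.56, and of all genes 49.8% were positive. The test called 14 members higher in 3xTg and 0 lower, where 3.17% of the 16262 genes tested were called higher. They were Stat2 and Irf9 of the signalling factors, Usp18 and Herc6 of the ISG15 system, the sensor Eif2ak2, Ifit1, Ifit3 and Ifit3b, Gbp7, Ifitm3, Oasl2, Parp14, Dtx3l and Trim30a. DESeq2 called 18, against 3.87% of all genes in either direction (6.53% by edgeR). The number of members called by edgeR was 9 without replicate 4 of WT-D and 22 without replicate 1 of 3xTg-D, and 8 members (Ifit1, Ifit3, Stat2, Usp18, Parp14, Dtx3l, Eif2ak2 and Herc6) were called in each of the 19 alternatives planned for this fit.

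With vehicle alone, 2 members were called higher in 3xTg-D than in WT-D, Stat2 and Parp14, where 0.638% of the 15528 genes were called higher. All 37 tested members were positive with a median log2 fold change of 0.70, and 49.0% of all genes were positive. An unadjusted p under 0.01 was found in 17 members, all higher, against 2.49% of all genes, and in 7 members the groups did not overlap, against 3.79%. Both calls fall close to the threshold, and both were lost with runs of animal numbers as a block. No member was called without any 1 of replicates 1, 2 and 3 of WT-D or replicates 2, 3 and 4 of 3xTg-D, Stat2 alone was called without replicate 4 of WT-D, and 10 members were called without replicate 1 of 3xTg-D. With inhibitor in both strains, no member was called in 3xTg-S against WT-S by edgeR or by DESeq2, where edgeR called 0.613% of the 15664 genes higher. There 36 of 37 members were positive with a median of 0.42. Before adjustment 4 members were higher at p under 0.01 (Usp18, Ifitm3, Eif2ak2 and Herc6) against 2.07% of all genes, 17 at p under 0.05 against 5.43%, and in 4 members the groups did not overlap, against 5.53%. Without replicate 2 of 3xTg-S, 2 members were called (Ifit3 and Rnf213).

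The signalling factors are described first. Stat2 (chr10:128270559-128292849 of GRCm38) was at 25.6, 23.8, 24.2 and 27.4 CPM in WT-D and 28.8, 36.3, 40.6 and 37.7 CPM in 3xTg-D. It was at 23.9, 24.6 and 28.9 CPM in WT-S and 30.6, 28.5, 35 and 31.1 CPM in 3xTg-S. With vehicle no library overlapped, and with inhibitor only replicate 2 of 3xTg-S fell inside the WT range. The log2 fold change was 0.50 (SE 0.10, adjusted p = 0.0287) with vehicle, 0.28 (SE 0.09, adjusted p = 0.249) with inhibitor and 0.40 (SE 0.07, adjusted p = 0.00219) over both. Irf9 was at 7.74, 9.15, 8.13 and 8.27 CPM in WT-D and 9.61, 12.4, 10.5 and 19.1 CPM in 3xTg-D, with every 3xTg library above the WT libraries by a small margin in replicates 1 and 3. With inhibitor it was at 8.14, 8.27 and 11.3 CPM in WT-S and 14.1, 10.3, 9.7 and 15.1 CPM in 3xTg-S, and 2 of the 4 3xTg libraries were below the highest WT library. Over both treatments its difference was 0.53 (SE 0.14, adjusted p = 0.0281), a call that was lost in 6 of 19 alternatives (without replicate 1 or 4 of WT-D, 1 or 2 of WT-S, or 1 or 4 of 3xTg-S). Irf7 was at 1.05, 1.07, 0.866 and 1.04 CPM in WT-D and 1.01, 2.49, 1.2 and 5.94 CPM in 3xTg-D and at 0.697, 1.22 and 1.63 CPM in WT-S and 2.8, 1.04, 1.25 and 3.65 CPM in 3xTg-S. Replicate 4 of 3xTg-D was far above the WT libraries and replicate 1 was inside the WT range, and the member was not called (1.15 (SE 0.37, adjusted p = 0.0728) over both). Nlrc5, the activator of class I antigen presentation genes, was below 1 CPM on average and was not called (0.63 (SE 0.32, adjusted p = 0.288)).

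In the ISG15 system, Usp18 (chr6:121245906-121270917) was at 0.815, 0.668, 0.666 and 0.857 CPM in WT-D and 0.939, 3.54, 1.38 and 7.0 CPM in 3xTg-D. With inhibitor it was at 0.62, 1.22 and 0.922 CPM in WT-S and 3.65, 1.1, 1.84 and 3.98 CPM in 3xTg-S. The 3xTg-D libraries did not overlap WT-D, although replicate 1 was above by a narrow margin, and 1 of the 4 3xTg-S libraries fell inside the WT-S range. Its log2 fold change was 2.06 (SE 0.56, adjusted p = 0.109) with vehicle, 1.51 (SE 0.45, adjusted p = 0.178) with inhibitor and 1.82 (SE 0.40, adjusted p = 0.00843) over both, the largest of the members in that fit. Isg15, the modifier itself, was at 0.582, 0.868, 0.533 and 0.551 CPM in WT-D and 0.361, 1.57, 0.778 and 4.66 CPM in 3xTg-D. It was at 0.852, 1.37 and 0.922 CPM in WT-S and 2.19, 0.779, 1.03 and 2.03 CPM in 3xTg-S. Replicate 1 of 3xTg-D was below all WT-D libraries and replicate 4 was far above them, and Isg15 was not called (1.05 (SE 0.42, adjusted p = 0.165) over both). Herc6, the ligase that attaches ISG15 in mice (chr6:57581000-57664632), was at 4.89, 4.21, 3.66 and 3.67 CPM in WT-D and 4.05, 6.29, 5.68 and 9.26 CPM in 3xTg-D and at 3.1, 3.38 and 3.12 CPM in WT-S and 4.32, 4.09, 5.07 and 5.4 CPM in 3xTg-S. The groups overlapped with vehicle and did not with inhibitor, for a log2 difference of 0.59 (SE 0.14, adjusted p = 0.0162) over both.

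Of the sensors of RNA and DNA, 4 of 5 were tested and 1 was called. Eif2ak2 (chr17:78852564-78882573) was at 10.1, 11.8, 9.06 and 11.9 CPM in WT-D and 12.4, 16.2, 13.2 and 23.3 CPM in 3xTg-D. With inhibitor it was at 10.5, 10.6 and 10.8 CPM in WT-S and 15.8, 11.9, 12.9 and 16.9 CPM in 3xTg-S. No library overlapped in either arm, and the log2 fold change was 0.59 (SE 0.18, adjusted p = 0.163) with vehicle, 0.43 (SE 0.13, adjusted p = 0.195) with inhibitor and 0.52 (SE 0.12, adjusted p = 0.0127) over both. Ddx58, which encodes the RNA helicase RIG-I, was at 7.16, 6.14, 6.0 and 6.06 CPM in WT-D and 5.2, 10.7, 7.36 and 14.8 CPM in 3xTg-D and at 6.66, 7.83 and 5.75 CPM in WT-S and 10.9, 5.71, 9.48 and 10.8 CPM in 3xTg-S. The lowest 3xTg library of each arm was below all WT libraries and the difference was not called (0.52 (SE 0.18, adjusted p = 0.0993)). Trim25, the ubiquitin ligase that activates RIG-I, was at 7.28, 4.81, 5.26 and 6.37 CPM in WT-D and 6.86, 9.17, 8.26 and 10.2 CPM in 3xTg-D and at 5.73, 6.04 and 5.53 CPM in WT-S and 6.99, 5.0, 6.76 and 7.77 CPM in 3xTg-S, and was not called (0.38 (SE 0.12, adjusted p = 0.0602)). Ifih1, the helicase MDA5, had 0.25 (SE 0.16, adjusted p = 0.431), and Zbp1 was under the filter.

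The IFIT proteins bind viral RNA together. Ifit1 (chr19:34640871-34650009) was at 3.44, 1.6, 2.07 and 2.02 CPM in WT-D and 2.82, 9.95, 4.67 and 18.9 CPM in 3xTg-D. With inhibitor it was at 2.09, 3.31 and 3.33 CPM in WT-S and 9.49, 3.44, 3.67 and 7.97 CPM in 3xTg-S. Replicate 1 of 3xTg-D was the only 3xTg library at 10 months that did not exceed all 7 WT libraries. Its log2 fold change was 1.97 (SE 0.50, adjusted p = 0.0914) with vehicle, 1.08 (SE 0.36, adjusted p = 0.253) with inhibitor and 1.57 (SE 0.36, adjusted p = 0.0119) over both. Ifit3 (chr19:34583531-34588731) was at 4.08, 4.14, 3.26 and 4.16 CPM in WT-D and 3.47, 13, 8.14 and 17.8 CPM in 3xTg-D and at 5.35, 6.11 and 6.45 CPM in WT-S and 13.6, 5.2, 8.67 and 13.3 CPM in 3xTg-S. In each arm 1 of the 4 3xTg libraries was inside or below the WT range, and the log2 fold change over both was 1.12 (SE 0.27, adjusted p = 0.0151). Ifit3b (chr19:34607970-34613401) was at 2.27, 3.67, 2.26 and 2.14 CPM in WT-D and 2.67, 6.94, 4.97 and 11.2 CPM in 3xTg-D and at 2.79, 3.31 and 3.26 CPM in WT-S and 6.63, 2.6, 4.26 and 6.89 CPM in 3xTg-S, with replicate 1 of 3xTg-D inside the WT range and replicate 2 of 3xTg-S below it (1.04 (SE 0.27, adjusted p = 0.0219) over both, lost without replicate 4 of WT-D). Ifit3 and Ifit3b cannot be separated with certainty, because 41.1% of the 75-base windows of Ifit3 transcripts also occur in Ifit3b and 35.7% of those of Ifit3b in Ifit3. Ifit2 stood apart from the other 3 with a log2 difference of 0.14 (SE 0.10, adjusted p = 0.461).

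The guanylate-binding proteins (GBPs) are large GTPases that attack the membranes around intracellular pathogens. Gbp7 was at 6.29, 4.21, 4.6 and 3.8 CPM in WT-D and 4.55, 9.04, 7.72 and 9.68 CPM in 3xTg-D. It was at 3.1, 5.53 and 4.26 CPM in WT-S and 6.57, 4.61, 6.02 and 6.89 CPM in 3xTg-S. Its level was above all WT libraries of 10 months in 5 of the 8 3xTg libraries, and it was called over both treatments (0.61 (SE 0.16, adjusted p = 0.0295)). That call was lost in 8 of 19 alternatives (without replicate 2, 3 or 4 of WT-D, 2 or 4 of 3xTg-D, 1 of WT-S, or 1 or 4 of 3xTg-S). Gbp3 was at 3.67, 3.2, 3.13 and 4.04 CPM in WT-D and 3.9, 7.92, 4.79 and 16.4 CPM in 3xTg-D and at 4.18, 5.82 and 6.38 CPM in WT-S and 9.49, 3.77, 7.2 and 9.73 CPM in 3xTg-S, with 1 library of each 3xTg group inside or below the WT range (0.86 (SE 0.28, adjusted p = 0.0723)). Gbp2 was at 3.49, 3.27, 5.26 and 4.71 CPM in WT-D and 4.19, 5.7, 10.5 and 9.82 CPM in 3xTg-D and at 4.96, 6.9 and 5.53 CPM in WT-S and 7.72, 4.22, 5.8 and 7.7 CPM in 3xTg-S, and was not called (0.52 (SE 0.21, adjusted p = 0.153)).

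Ifitm3 and Oasl2 were the called members among 11 membrane and other antiviral effectors. Ifitm3 stops viruses from fusing with endosomes, and it was at 7.63, 6.21, 6.26 and 8.39 CPM in WT-D and 6.07, 13.8, 10.9 and 15.9 CPM in 3xTg-D. With inhibitor it was at 6.97, 10.9 and 8.51 CPM in WT-S and 14.8, 11.1, 10.4 and 15.3 CPM in 3xTg-S. Of the 8 3xTg libraries 6 were above all WT libraries, and the log2 fold change over both was 0.63 (SE 0.16, adjusted p = 0.0221), a call lost without replicate 2 or 4 of 3xTg-D. Oasl2 was at 4.08, 3.2, 3.53 and 4.47 CPM in WT-D and 2.96, 15.9, 5.68 and 50.2 CPM in 3xTg-D and at 3.25, 5.46 and 7.73 CPM in WT-S and 13.5, 3.38, 8.67 and 24.4 CPM in 3xTg-S. The value of 50.2 CPM in replicate 4 of 3xTg-D stood beside 2.96 CPM in replicate 1, which was below all WT libraries. Its log2 fold change was 1.77 (SE 0.51, adjusted p = 0.0407) over both, and it was 1.14 (adjusted p = 0.0896) without replicate 4 of 3xTg-D. The call was lost in 10 of 19 alternatives, each of which left out 1 library (any of WT-D, replicates 2 and 4 of 3xTg-D, 1 and 2 of WT-S, and 1 and 4 of 3xTg-S). Bst2, the protein tetherin that holds budding viruses at the cell surface, was at 1.69, 1.07, 1.2 and 0.918 CPM in WT-D and 0.867, 2.75, 1.62 and 7.92 CPM in 3xTg-D and at 1.7, 2.16 and 2.62 CPM in WT-S and 2.43, 2.47, 2.57 and 5.0 CPM in 3xTg-S. Only 3 of the 8 3xTg libraries were above all WT libraries, and it was not called (0.97 (SE 0.36, adjusted p = 0.13)).

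The remaining effectors were not called over both treatments. Ifi27, a small membrane protein, was at 25.8, 28, 26 and 24 CPM in WT-D and 28.8, 32.9, 27.2 and 54 CPM in 3xTg-D and at 29.1, 27 and 32.1 CPM in WT-S and 35.5, 36.4, 31.2 and 44.5 CPM in 3xTg-S (0.40 (SE 0.12, adjusted p = 0.0529)). The lowest 3xTg library overlapped WT with inhibitor and also with vehicle. Rtp4 was at 1.46, 1.0, 0.933 and 1.16 CPM in WT-D and 1.16, 2.49, 1.85 and 6.01 CPM in 3xTg-D and at 1.63, 2.16 and 1.77 CPM in WT-S and 4.13, 2.21, 1.76 and 3.58 CPM in 3xTg-S (1.00 (SE 0.30, adjusted p = 0.0518)). Replicate 4 of 3xTg-D was the highest library. Xaf1, which promotes apoptosis by binding XIAP, was at 4.13, 4.61, 4.46 and 3.92 CPM in WT-D and 3.76, 4.58, 3.89 and 8.76 CPM in 3xTg-D and at 3.95, 3.95 and 5.6 CPM in WT-S and 6.26, 5.65, 5.0 and 7.97 CPM in 3xTg-S (0.37 (SE 0.17, adjusted p = 0.23)). With vehicle replicate 4 alone was high. Rsad2, the enzyme viperin that makes a chain-terminating nucleotide, was at 1.75, 2.0, 1.53 and 1.53 CPM in WT-D and 2.38, 2.82, 2.21 and 3.39 CPM in 3xTg-D and at 2.87, 1.01 and 1.92 CPM in WT-S and 2.37, 2.47, 1.91 and 2.43 CPM in 3xTg-S (0.48 (SE 0.18, adjusted p = 0.13)). Samd9l, an antiproliferative antiviral factor, was at 5.65, 5.07, 6.06 and 5.51 CPM in WT-D and 4.55, 9.23, 11.2 and 13.4 CPM in 3xTg-D and at 7.05, 5.97 and 4.47 CPM in WT-S and 8.94, 4.29, 6.61 and 8.51 CPM in 3xTg-S (0.56 (SE 0.20, adjusted p = 0.1)). With inhibitor the groups overlapped in both genes, and with vehicle they overlapped in Samd9l but not in Rsad2. Ifi35 (0.36 (SE 0.17, adjusted p = 0.241)), Ifi44 (0.79 (SE 0.48, adjusted p = 0.393)) and Cmpk2 (0.03 (SE 0.05, adjusted p = 0.846)) completed this group. Cmpk2, a mitochondrial nucleotide kinase beside Rsad2 on chromosome 12, lay between 20.1 and 25.8 CPM in all 23 libraries, the narrowest relative range among the members.

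Parp14 and Dtx3l belong to the enzymes that attach ADP-ribose to proteins. Parp14 (chr16:35832874-35871544) was at 4.19, 3.2, 2.4 and 3.98 CPM in WT-D and 4.19, 7.53, 8.38 and 8.76 CPM in 3xTg-D. With inhibitor it was at 4.57, 4.38 and 3.97 CPM in WT-S and 6.75, 4.03, 6.47 and 5.81 CPM in 3xTg-S. Replicate 1 of 3xTg-D overlapped WT-D and replicate 2 of 3xTg-S overlapped WT-S, while the other 6 3xTg libraries were above all 7 WT libraries. Its log2 fold change was 1.06 (SE 0.23, adjusted p = 0.0499) with vehicle, 0.42 (SE 0.19, adjusted p = 0.457) with inhibitor and 0.77 (SE 0.17, adjusted p = 0.0105) over both. Dtx3l, the ubiquitin ligase that works with Parp9 (chr16:35926511-35939151), was at 9.08, 8.28, 8.39 and 8.33 CPM in WT-D and 9.9, 10.4, 12.4 and 15.1 CPM in 3xTg-D and at 8.29, 7.83 and 7.02 CPM in WT-S and 9.24, 8.51, 9.85 and 10.5 CPM in 3xTg-S. No library overlapped in either arm, and the log2 fold change was 0.40 (SE 0.09, adjusted p = 0.00926) over both. Parp9 lies head to head with Dtx3l on chromosome 16 and was not called (0.38 (SE 0.17, adjusted p = 0.224)). Their transcripts overlap on opposite strands, and since no source used here says whether counting used strand, 6.63% of the windows of Parp9 and 6.72% of those of Dtx3l may be counted for either.

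Among the other members, Trim30a, a mouse regulator of innate signalling, was at 2.45, 3.0, 2.33 and 2.57 CPM in WT-D and 3.03, 3.47, 4.49 and 6.64 CPM in 3xTg-D and at 2.4, 2.8 and 1.77 CPM in WT-S and 5.41, 2.08, 3.31 and 4.25 CPM in 3xTg-S. With vehicle no library overlapped and with inhibitor replicate 2 of 3xTg-S did (0.74 (SE 0.20, adjusted p = 0.0293) over both). The call was lost in 7 of 19 alternatives (without replicate 1, 3 or 4 of WT-D, 4 of 3xTg-D, 3 of WT-S, or 1 or 4 of 3xTg-S). Rnf213, a very large ubiquitin ligase, was at 14, 12.2, 13.5 and 15.1 CPM in WT-D and 11.9, 23.3, 18.7 and 30.2 CPM in 3xTg-D and at 14.7, 13.1 and 14 CPM in WT-S and 21.6, 9.48, 18.4 and 20.9 CPM in 3xTg-S. In each arm 3 of the 4 3xTg libraries were above all WT libraries and the remaining one was below them, and the difference was not called (0.49 (SE 0.17, adjusted p = 0.104)). Lgals3bp, a secreted galectin-binding glycoprotein, was at 12.4, 8.75, 7.59 and 10.2 CPM in WT-D and 9.46, 17.7, 13.4 and 36.2 CPM in 3xTg-D and at 11.2, 15.4 and 18.2 CPM in WT-S and 17, 10.3, 15.2 and 23 CPM in 3xTg-S, and was not called (0.57 (SE 0.25, adjusted p = 0.202)). Lgals9, a galectin, had 0.16 (SE 0.16, adjusted p = 0.646), and Sp100, a scaffold of nuclear bodies, had 0.16 (SE 0.17, adjusted p = 0.682).

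**Figure D4:**
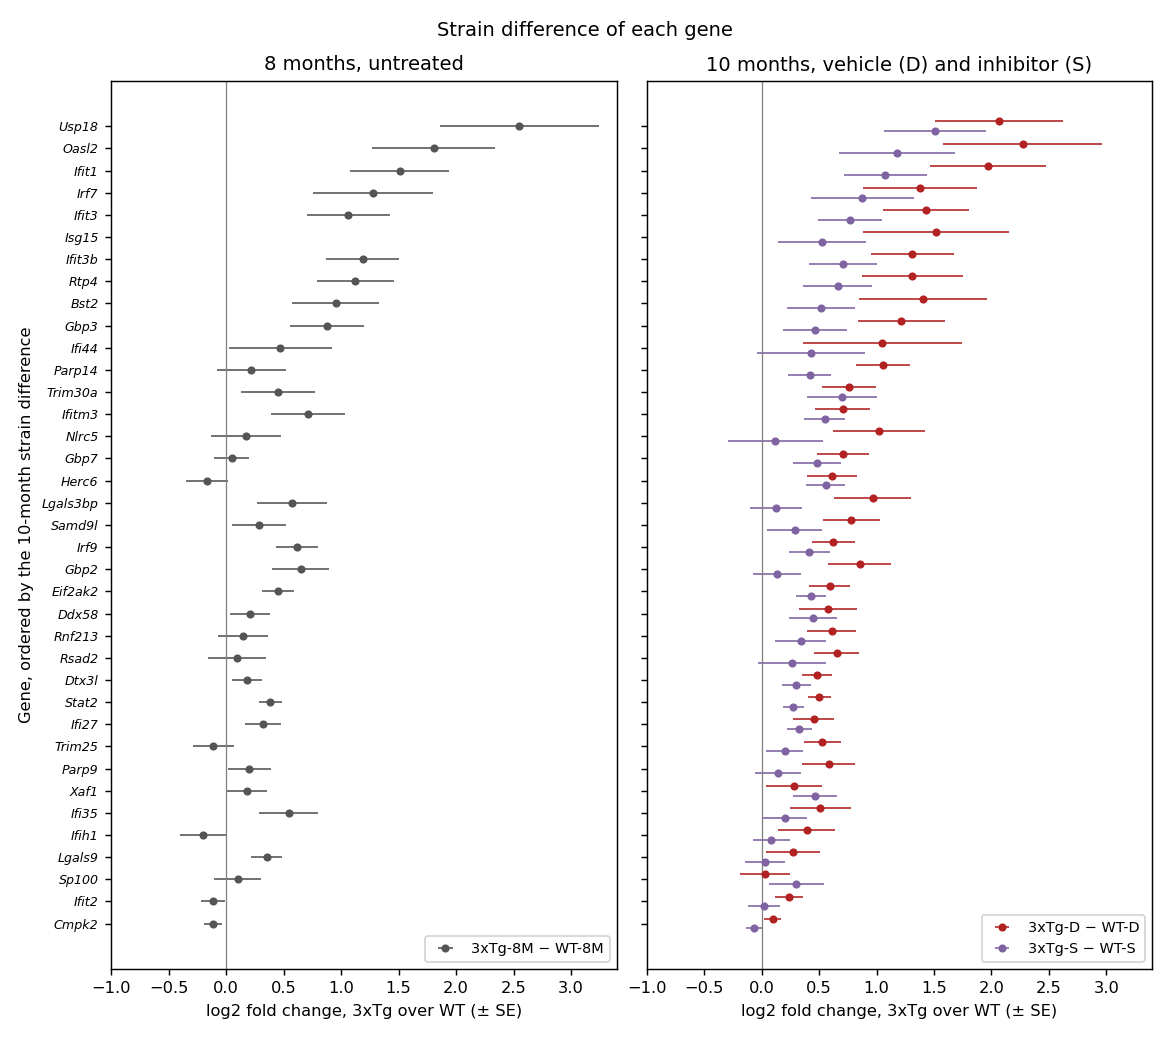
Log2 fold change of 3xTg over WT ± SE (edgeR) for each tested member at 8 months (first panel) and at 10 months with vehicle or inhibitor (second panel), in the order of the difference over both treatments. Usp18 and Oasl2 lie farthest from 0. In the difference over both treatments, which sets the order and is not plotted, Cmpk2, Ifit2 and Sp100 are nearest to 0. The vehicle values of most members lie above the inhibitor values, and the error bars do not overlap in Stat2 and Parp14. No member was called for a change of the strain difference with the inhibitor.

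Inhibitor-infused 3xTg mice were also set against vehicle-infused WT mice, a comparison that mixes strain and inhibitor. It called 8 of 36 tested members higher, where 1.19% of the 15567 genes were called higher. They were Ifit1, Ifit3, Usp18, Gbp3, Bst2, Rtp4, Ifi27 and Ifitm3. Of the members 34 were positive with a median log2 fold change of 0.54. With an unadjusted p under 0.01 there were 19 higher against 3.58% of all genes, and in 10 the groups did not overlap, against 5.76%. This comparison shares its WT-D libraries with the vehicle comparison and its 3xTg-S libraries with the inhibitor comparison. Ifitm3 had a log2 difference of 0.86 (SE 0.15, adjusted p = 0.00927) here and 0.70 (SE 0.24, adjusted p = 0.214) in 3xTg-D against WT-D. Ifi27 had 0.51 (SE 0.10, adjusted p = 0.0174) here and 0.45 (SE 0.18, adjusted p = 0.306) there, and Ifit3 1.38 (SE 0.26, adjusted p = 0.0141) here and 1.43 (SE 0.37, adjusted p = 0.0945) there. The standard errors were smaller here for all 3 members, in which the 3xTg-S libraries lay closer together than the 3xTg-D libraries did. The count depended on single libraries: it was 2 without replicate 1 of 3xTg-S, 3 without replicate 4 of 3xTg-S or without any 1 of replicates 2, 3 and 4 of WT-D, and 16 without replicate 2 of 3xTg-S. It was 0 when all 15 libraries of 10 months shared 1 fit.

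The inhibitor was compared with vehicle within each strain. In 3xTg mice no member was called, and of all 15530 genes 0% were called in either direction. Of 37 members 6 were positive and 31 negative, with a median log2 fold change of -0.22, and 49.5% of all genes were positive. At an unadjusted p under 0.05 there were 2 members, Dtx3l and Trim25, both lower with the inhibitor, against 11.2% of all genes in either direction, so the share of members (of 37) was below that of all genes. DESeq2 called 0 members. Dtx3l had a log2 difference of -0.33 (SE 0.13, adjusted p = 0.418) and Trim25 -0.38 (SE 0.15, adjusted p = 0.419). The module differed by -0.08 between 3xTg-S and 3xTg-D, and this value was 0.18 without replicate 4 of 3xTg-D, 0.07 without replicate 2 of 3xTg-S and -0.32 without replicate 1 of 3xTg-D, so its sign changed with 1 library. The difference of Usp18 was -0.26 (SE 0.53, adjusted p = 0.872) and that of Oasl2 -0.57 (SE 0.70, adjusted p = 0.77), each with an SE larger than its size. These data do not resolve a change of the members with the inhibitor in 3xTg mice, and they do not show that there was none.

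In WT mice the inhibitor comparison likewise called no member and 0% of the 15724 genes, and DESeq2 called 0 members. Of 36 members 29 were positive and 7 negative with a median of 0.20, and 50.6% of all genes were positive. At an unadjusted p under 0.01 there were 3 members higher with the inhibitor, Ifit3, Gbp3 and Lgals3bp, against 0.273% of all genes. At an unadjusted p under 0.05 there were 7, against 3.42% of all genes in either direction. Ifit3 was at 4.08, 4.14, 3.26 and 4.16 CPM in WT-D and 5.35, 6.11 and 6.45 CPM in WT-S, with no overlap (0.61 (SE 0.15, adjusted p = 0.981)). Gbp3 was at 3.67, 3.2, 3.13 and 4.04 CPM and 4.18, 5.82 and 6.38 CPM, also apart (0.64 (SE 0.18, adjusted p = 0.981)). Lgals3bp overlapped, with a log2 difference of 0.62 (SE 0.19, adjusted p = 0.981). The groups did not overlap in 4 members that were higher (Ifit3, Gbp3, Bst2 and Rtp4), against 2.93% of all genes that were apart and higher. They also did not overlap in Herc6, which was lower with the inhibitor (-0.36 (SE 0.17, adjusted p = 0.981)). The share of all genes apart and lower is not given, so this 1 member cannot be set against it. Runs of consecutive animal numbers in the labels hold libraries of both strains and treatments, and what a run marks is not stated. Deviations from group means of WT-S and WT-D libraries in the same run correlated with r of 0.12 to 0.184. With the runs as a block 0 members were called. The module was higher by 0.21, between 0.17 and 0.28 with 1 library left out.

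Over both strains the inhibitor coefficient was positive in 16 and negative in 21 of 37 members with a median of -0.06. No member was called by edgeR or DESeq2, nor was any other gene (0%), and 2 members were lower at an unadjusted p under 0.05 against 13.6% of all genes in either direction. The interaction of strain and inhibitor asks whether the strain difference changed with the inhibitor. It was negative in 35 of 37 members, with a median of -0.33, while the median over all genes was 0.0021. No member passed an adjusted p under 0.05 by edgeR or DESeq2 (0% of all genes by edgeR), and 0 members passed an unadjusted p under 0.05 against 2.32% of all genes. Oasl2 had -1.09 (SE 1.02, adjusted p = 1.0), Isg15 -0.99 (SE 0.85, adjusted p = 1.0) and Ifit1 -0.89 (SE 0.73, adjusted p = 1.0), with SEs close to the size of the difference. The 35 negative values share the same 15 libraries and the same few high ones, so their number adds no independent evidence. A smaller strain difference under the inhibitor was therefore not resolved at this number of animals.

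**Figure D5:**
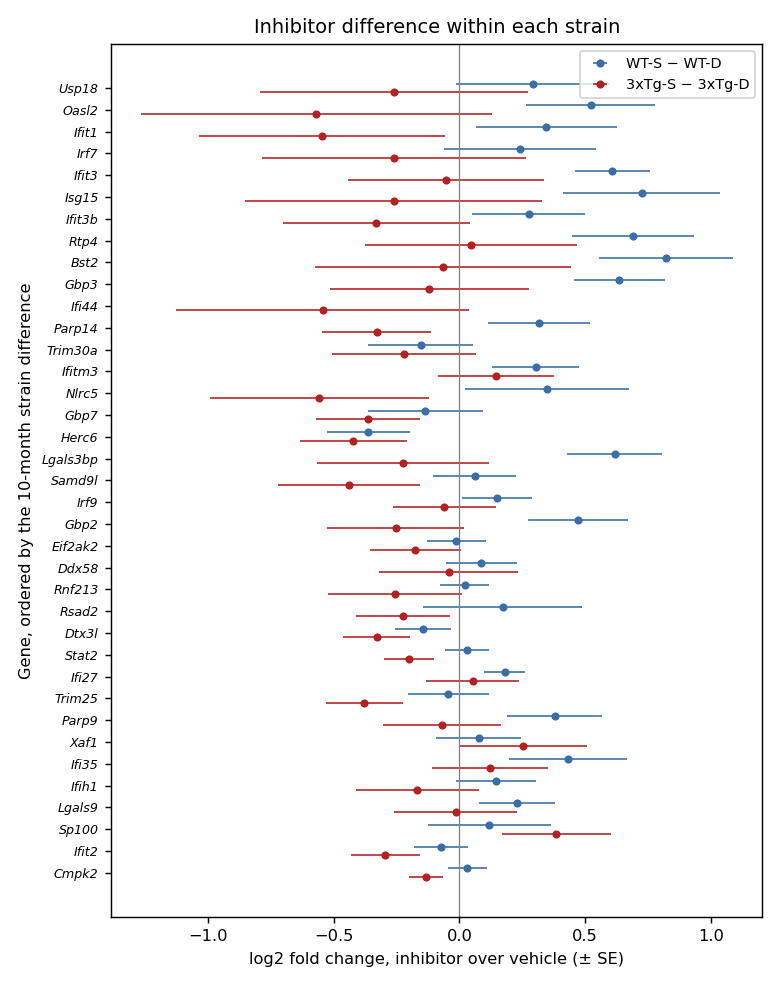
Log2 fold change of inhibitor over vehicle ± SE (edgeR) for each tested member in WT and in 3xTg mice. Values in WT lie mostly above 0 (29 of 36) and values in 3xTg mostly below (31 of 37), and no member was called in either strain or in the interaction.

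The strain difference at 8 months was set against that at 10 months with vehicle in 1 fit of 16 libraries. It was lower at 8 months in 31 of 37 members and higher in 6, with a median difference of -0.33. No member was called by edgeR or DESeq2, where 0.0621% of the 16108 genes were called in either direction. At an unadjusted p under 0.05 there were 4 members, all lower at 8 months (Ifit2, Gbp7, Trim25 and Herc6), against 9.57% of all genes in either direction. The share of members (of 37) was thus close to that of all genes. Herc6, for example, was at 4.46, 6.03, 4.13 and 5.46 CPM in WT-8M and 5.14, 5.31, 3.38 and 3.83 CPM in 3xTg-8M, and the difference of its strain effects was -0.78 (SE 0.30, adjusted p = 0.477). Usp18 was among the 6 members with the opposite sign (0.48 (SE 1.01, adjusted p = 0.892)).

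Other genes of the pathway were read from lists made by role. The 11 interferon ligand genes listed had 9 reads in total over the 23 libraries, 6 of them had 0 in every library, and no library had more than 2 reads of one, so the ligands were not detectable at this depth. Over both treatments at 10 months, 1 of 4 tested receptor genes was higher in 3xTg, the interferon gamma receptor chain Ifngr1 (0.20 (SE 0.05, adjusted p = 0.015)), while the type I receptor chain Ifnar1 had -0.04 (SE 0.05, adjusted p = 0.699). None of 5 kinases and STATs was called. The same fit called 3.17% of all genes higher. Of 5 further interferon regulatory factors, Irf5 (0.53 (SE 0.11, adjusted p = 0.00558)) and Irf8 (0.42 (SE 0.12, adjusted p = 0.038)) were higher. Of 12 sensors and adaptors, the RNA receptor gene Tlr7 (0.66 (SE 0.14, adjusted p = 0.00654)) and Tmem173, which encodes the adaptor STING (0.49 (SE 0.14, adjusted p = 0.047)), were higher. Of 5 tested inhibitors and nucleases, 1 was higher, the cytokine signalling suppressor Socs3 (1.28 (SE 0.28, adjusted p = 0.00818)).

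A further list held 52 interferon-induced genes that are not members, of which 46 were tested over both treatments. There 43 were positive and 3 negative with a median of 0.46, and 16 were called higher, against 3.17% of all genes. Trim34a (2.60 (SE 0.28, adjusted p = 5.18e-06)) had the largest difference, followed by Ifi27l2a (2.45 (SE 0.49, adjusted p = 0.00413)). Also higher were the chemokine gene Cxcl10 (1.89 (SE 0.42, adjusted p = 0.0085)), the antiviral GTPase gene Mx2 (1.48 (SE 0.32, adjusted p = 0.0071)), the oligoadenylate synthetase gene Oas2 (1.62 (SE 0.44, adjusted p = 0.0312)), Epsti1 (1.42 (SE 0.25, adjusted p = 0.00123)) and B2m, the light chain of class I antigen presentation (0.58 (SE 0.13, adjusted p = 0.00964)). With vehicle alone 4 of 36 tested were called (Irgm2, Trim34a, Parp12 and Epsti1) against 0.638% of all genes, and with inhibitor 2 of 40 (B2m and Trim34a) against 0.613%. At 8 months 0 of 38 were called against 1.05%, and 6 had an unadjusted p under 0.01 against 3.13%. Their spread was also larger in 3xTg than in WT groups, but in 3xTg groups it was smaller than that of the module. In 34 of them with at least 1 CPM the mean centred log2 CPM was 0.26 ± 0.27 (SD, n = 4) in 3xTg-D and -0.24 ± 0.12 (n = 4) in WT-D. The SD of the module in 3xTg-D was 0.62. The order of libraries differed in part: in 3xTg-8M these genes were highest in replicate 2 (0.22, against 0.15 in replicate 1), and the module was highest in replicate 1.

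In tissue RNA, more or fewer cells of a type cannot be told apart from more or less RNA per cell. Microglial markers moved with the strain comparison. All 10 markers listed, among them Cx3cr1, P2ry12, Tmem119 and Csf1r, were positive in 3xTg over both treatments, with a median log2 fold change of 0.36 and 7 called. Their summed level was 426 to 510 CPM in WT-8M, 504 to 652 in 3xTg-8M, 427 to 510 in WT-D, 468 to 744 in 3xTg-D, 466 to 491 in WT-S and 569 to 705 in 3xTg-S. Replicate 4 of 3xTg-D, the highest library of the module, also had the highest sum, but replicate 1, at the WT level in the module, had 596 CPM and replicate 3, above WT in 28 members, had 468 CPM. With the microglial score as a covariate, an alternative chosen after seeing the data, 1 member was called over both treatments (Stat2, 0.42, SE 0.11, adjusted p = 0.0458), 22 members were positive and 15 negative, and the median fell to 0.13. Of the 14 members called without it, Oasl2 changed sign (from 1.77 to -0.05), and Isg15, which was not called, went from 1.05 to -0.39. The same covariate left 0 members called with vehicle (31 of 37 positive, median 0.25), 0 with inhibitor (16 positive and 21 negative, median -0.01) and 0 at 8 months (21 of 36 positive, median 0.05). In 3xTg-S against 3xTg-D, where all 10 markers were positive (median 0.14), it also left 0 called. There 33 of 37 members were negative with a median of -0.33, against 31 and -0.22 without the covariate. A microglial score that itself differs between the strains takes part of any strain difference with it, and what share of the members' difference comes with microglia was not tested.

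Other cell types were checked by the same kind of lists. Of 8 T cell and leukocyte genes none had more than 8 reads in a library. Oligodendrocyte markers moved with strain under the inhibitor. In 3xTg-S against WT-S all 6 were positive with a median log2 fold change of 0.30 and 2 called, Mobp among them, and in 3xTg-S against WT-D all 6 were positive with a median of 0.32 and 3 called. Their summed level was 5724 to 6493 CPM in 3xTg-S, 3823 to 4879 CPM in WT-S and 4088 to 5237 CPM in WT-D, without overlap. With vehicle and at 8 months 3 of 6 were positive and 0 called, and over both treatments 5 of 6 were positive with a median of 0.16 and 1 called. Haemoglobin and other blood markers were positive for all 5 genes in every strain comparison, with medians of 1.12 at 8 months, 0.43 with vehicle, 1.13 with inhibitor, 1.81 in 3xTg-S against WT-D and 0.85 over both treatments, and 1 was called, in 3xTg-S against WT-D. They summed to 21.3 to 49.0 CPM in WT-8M, 20.3 to 98.6 in 3xTg-8M, 21.7 to 32.1 in WT-D, 4.79 to 67.2 in 3xTg-D, 34.9 to 41.4 in WT-S and 30.0 to 208 in 3xTg-S. Choroid plexus markers summed to between 31.5 and 377 CPM and markers of the meninges to between 42.1 and 177 CPM over the libraries. Both varied within groups, and none of their genes was called in a strain comparison. The part of these cell types in the members' levels was not tested. Astrocyte and endothelial markers had median log2 fold changes of 0.12 and 0.06 over both treatments, and none of the 8 genes of either list was called. Markers of hippocampal neurons, among them Prox1 of the dentate gyrus, were present in every library with summed levels of 2782 to 3599 CPM, and 3 of 7 were lower in 3xTg (C1ql2, Wfs1 and Prox1).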

How the data were processed

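RNA of 23 hippocampi was analysed, grouped by the strain, age and treatment in the labels. The deposited values are raw counts of reads per gene. Per the methods and the submitters' processing notes, the authors made single-end libraries of polyadenylated RNA, used Trimmomatic 0.35 for trimming and aligned to GRCm38 by STAR 2.5.1b with Gencode genes. Normalisation, filtering or pooling of replicates before deposit was not found in the values, and neither the strand of counting nor any collapsing of molecular identifiers is stated. PCR reads are not independent molecules, so precision from depth covers counting error only. The 4 lines that name no gene held 24.7% to 30.9% of reads and were left out, and 0 columns per sample were left unused.

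Pairs of groups were fitted separately with edgeR 4.0.16 in R 4.3.3 (filterByExpr, TMM, quasi-likelihood test), and members with a Benjamini-Hochberg adjusted p under 0.05 over all genes tested are called. The standard error is the size of the log2 fold change divided by the square root of F. Strain, inhibitor and their interaction were also fitted over the 15 libraries of 10 months. Levels are CPM with TMM factors over all libraries. The module averages, over members with a mean of at least 1 CPM, log2 CPM with a prior count of 2 after centring each gene. The study itself tested pairs of groups with a likelihood ratio test in DESeq2 at an unadjusted p under 0.01.

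The members, lists, tests and alternatives were chosen with earlier results of these data known. Values in each library are given for members called or with an unadjusted p under 0.01 in any pair of groups, and for 15 members named in advance by symbol (Stat2, Irf9, Irf7, Usp18, Isg15, Ifit1, Ifit3, Ifit3b, Bst2, Ifitm3, Ifi27, Oasl2, Rnf213, Lgals3bp and Gbp3). As alternatives, the scaling was changed to DESeq2 size factors, the filter on low counts was removed, DESeq2 1.42.0 replaced edgeR, the 4 groups of 10 months were fitted together, each replicate was left out, and runs of 4 consecutive animal numbers in the labels were used as a block. Deviations from group means of libraries in the same run correlated with r of -0.211 to 0.184, and all 3 pairs were above 0.1 only for WT-S and WT-D. The scripts were tested on simulated data. Part of the 3xTg genotype and some genes of the lists are not reported here. Promoter windows were taken from RefSeq, and shared windows of 75 bases from Gencode M21 transcripts.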

Additional observations from a re-analysis of the deposited data

Results flagged for a closer look

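In 28 members and the module score, 145 sets of 4 libraries were checked for a highest or lowest value whose gap to the nearest library, as a share of the range of its group, exceeds Dixon's critical value, and 11 met this limit, where chance alone gives about 7.25 (1 in 20). Isg15 was at 3.03 CPM in replicate 1 of 3xTg-8M, against 0.45 to 0.769 CPM in the others. Xaf1 was at 8.76 CPM in replicate 4 of 3xTg-D, against 3.76 to 4.58 CPM. Bst2 was at 5.0 CPM in replicate 4 of 3xTg-S, against 2.43 to 2.57 CPM.

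The other 8 lay in WT groups. In WT-D, Irf7 was lowest in replicate 3 at 0.866 CPM (others 1.04 to 1.07 CPM). In the same group Ifit3 was lowest in replicate 3 at 3.26 CPM (others 4.08 to 4.16 CPM) and Ifit3b was highest in replicate 2 at 3.67 CPM (others 2.14 to 2.27 CPM). Isg15 was highest in replicate 2 of WT-D at 0.868 CPM (others 0.533 to 0.582 CPM). Ddx58 was highest in replicate 1 at 7.16 CPM (others 6.0 to 6.14 CPM), as was Dtx3l at 9.08 CPM (others 8.28 to 8.39 CPM). In WT-8M, Gbp3 was highest in replicate 3 at 4.95 CPM (others 2.85 to 3.02 CPM) and Parp14 in replicate 2 at 5.46 CPM (others 3.45 to 3.75 CPM).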

How the results depend on the processing

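With another scaling, no filter, DESeq2, one shared fit, the block or 1 library left out, no called member changed its direction. The module difference between 3xTg-S and 3xTg-D, a value with no test, ran from -0.32 to 0.18 with 1 library left out. Counts of called members moved by over 1.5 times as follows, and the cause was not tested. Shares of all genes called, in either direction, are given in parentheses. Without a filter on low counts there were 11 called at 8 months (2.66%, against 2.58% with the filter), 27 with vehicle (2.57% against 1.39%), 8 with inhibitor (2.41% against 1.32%), 20 in 3xTg-S against WT-D (3.68% against 2.29%) and 27 over both treatments (4.71% against 6.53%). DESeq2 called 3 at 8 months (2.22%), 4 with vehicle (1.35%) and 13 in 3xTg-S against WT-D (1.89%). All 15 libraries of 10 months in one fit gave 4 with vehicle (2.18%) and 0 in 3xTg-S against WT-D (2.65%).

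With 1 replicate left out, the counts ran from 0 to 6 at 8 months, 0 to 10 with vehicle, 0 to 2 with inhibitor, 2 to 16 in 3xTg-S against WT-D and 9 to 22 over both treatments. Shares of all genes called are not given for these fits or for the block. These counts therefore do not show whether members gained or lost more calls than other genes. With runs of animal numbers as a block, the count with vehicle was 0 in place of 2, while it was 10 in 3xTg-S against WT-D and 17 over both treatments. What a run marks is not stated. Deviations of libraries in the same run all correlated above 0.1 only for WT-S and WT-D, where the count remained 0. With the microglial score as a covariate, chosen after seeing the data, 0 were called with vehicle and 1 over both treatments, and Oasl2, called without it, went from 1.77 to -0.05 over both treatments. DESeq2 size factors left every count within 1.5 times. Low counts kept Zbp1 under the filter in every comparison, and Isg15 under it at 8 months, so neither could be tested there.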
